A study of Mus musculus with 28 samples.

Results

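Single neurons from M1, the primary motor cortex, of CD1 mice whose heat shock reporter had been switched on after prenatal ethanol are described here against neurons of the PBS injection control. The comparison takes 15 reporter+EtOH neurons (positive for GFP and RFP, called RFP-positive EtOH neurons below) and 6 reporter-PBS neurons (GFP-positive and RFP-negative, called PBS neurons), which are 21 of the 28 neurons of the series. The groups were taken from the sample titles, and each gene is compared by the difference of the group means of the deposited log values. The other 7 neurons, reporter-EtOH (exposed to ethanol, GFP-positive and RFP-negative), are given beside some results. All groups share the same operation: a plasmid with FLPo recombinase under a heat shock response element, an RFP plasmid that FLPo switches on, and a GFP plasmid that marks every electroporated cell were brought into M1 on embryonic day 15. The dams then received intraperitoneal ethanol (4.0 g/kg or a lower dose of 1.0 g/kg) or only the PBS it was diluted in on embryonic days 16 and 17, and the contents of single live neurons were drawn on postnatal day 30. Which of the 2 ethanol doses a neuron's dam received is not stated. The 2 groups differ both in exposure and in reporter state, so the effects of ethanol and of the reporter's history cannot be told apart within this comparison. The PBS samples carry EtOH in their time course label and PBS in their title and exposure label; the title decided the group.

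The heat shock response is the program by which a cell under protein-damaging stress raises its chaperones. Heat shock factors bind a repeated short element in DNA, and the reporter used here makes that event permanent, because recombination by FLPo leaves RFP on long after the stress has passed. RFP in a neuron of a young animal therefore marks a heat shock response at or before that time, not one that is still under way. Kcnn2, the gene in the title of the series, encodes SK2, a small-conductance potassium channel opened by calcium through calmodulin, which slows repeated firing through the afterhyperpolarization.

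The deposited table held 1024 genes with values from 1.00 to 13.22 on a log scale taken as base 2, and sequencing depth is unknown. Most values of a gene fell either into a low or into a high range with a trough at 4, so a neuron is called above the trough for a gene when its value is over 4. RFP-positive EtOH neurons had 273 to 434 genes above the trough (median 357), and PBS neurons had 286 to 412 (median 323.5). By exactly equal values shared between neurons (at least 5), the neurons fell into a larger set (13 RFP-positive EtOH, 5 PBS) and a smaller one, which held neurons 1 and 2 of the RFP-positive EtOH group and neuron 6 of the PBS group. What the sets stand for is not stated in the labels, and values within the larger set are given for some results only. No transgene is among the genes of the table, so the reporter state could not be checked against the values. A single marker of pyramidal neurons was measured: Nrgn (neurogranin) was over 4 in all 15 RFP-positive EtOH neurons and in 5 of 6 PBS neurons. Mef2c, a transcription factor used here for upper layers, did so in 13 of 15 RFP-positive EtOH neurons and all 6 PBS neurons. No deep-layer, endothelial or blood marker was measured. Gad1, the enzyme that makes GABA in inhibitory neurons, was above the trough in 3 of 15 RFP-positive EtOH neurons and 1 of 6 PBS neurons. The 6 measured glial markers were found in both groups, and their summed value ran from 14.8 to 43.5 (mean 26.1) in RFP-positive EtOH neurons and from 18.2 to 46.7 (mean 29.4) in PBS neurons. None of the 6 was low throughout either group, and their part in the differences below was not tested.

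No label names the animal of a neuron, so each group counts as 1 sample, no p-value is given, and SDs describe the spread across neurons. Means were higher in RFP-positive EtOH neurons for 579 genes (56.5%) and lower for 445, and the median difference over all genes was 0.26. The difference was at least 2 log units for 44 genes with higher means (4.3% of all genes) and for 55 genes with lower means (5.37%). In no gene did the values of the 2 groups fail to overlap, in either direction. The median SD across neurons was 2.67 in RFP-positive EtOH neurons and 2.52 in PBS neurons, each larger than the threshold of 2. The counts hang on single PBS neurons: without PBS neuron 1, 72 genes had means higher by 2 or more, without PBS neuron 6, 70, and without PBS neuron 2, 84 genes had means lower by 2 or more. Within the larger set of neurons 73 genes were higher and 81 lower by 2 or more. Of the 99 genes past 2 over all neurons, 79 stayed past 2 there, and 8 of 136 named genes changed sign. Among those described below, the larger-set differences were 1.19 for Cacybp, 1.33 for Ywhab, 1.53 for Mat2b, 1.68 for Slc25a4, 1.78 for Rab11a and 1.85 for Scn3b. They were -1.50 for Rab11b, -1.58 for Pdia4 and -1.65 for Rab3gap2. Without the neurons with Gad1 above the trough (12 RFP-positive EtOH and 5 PBS left), 72 of the 99 genes stayed past 2. The differences there were 0.93 for Ywhab, 1.23 for Scn3b and 1.61 for Gabbr1.

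**Figure D1:**
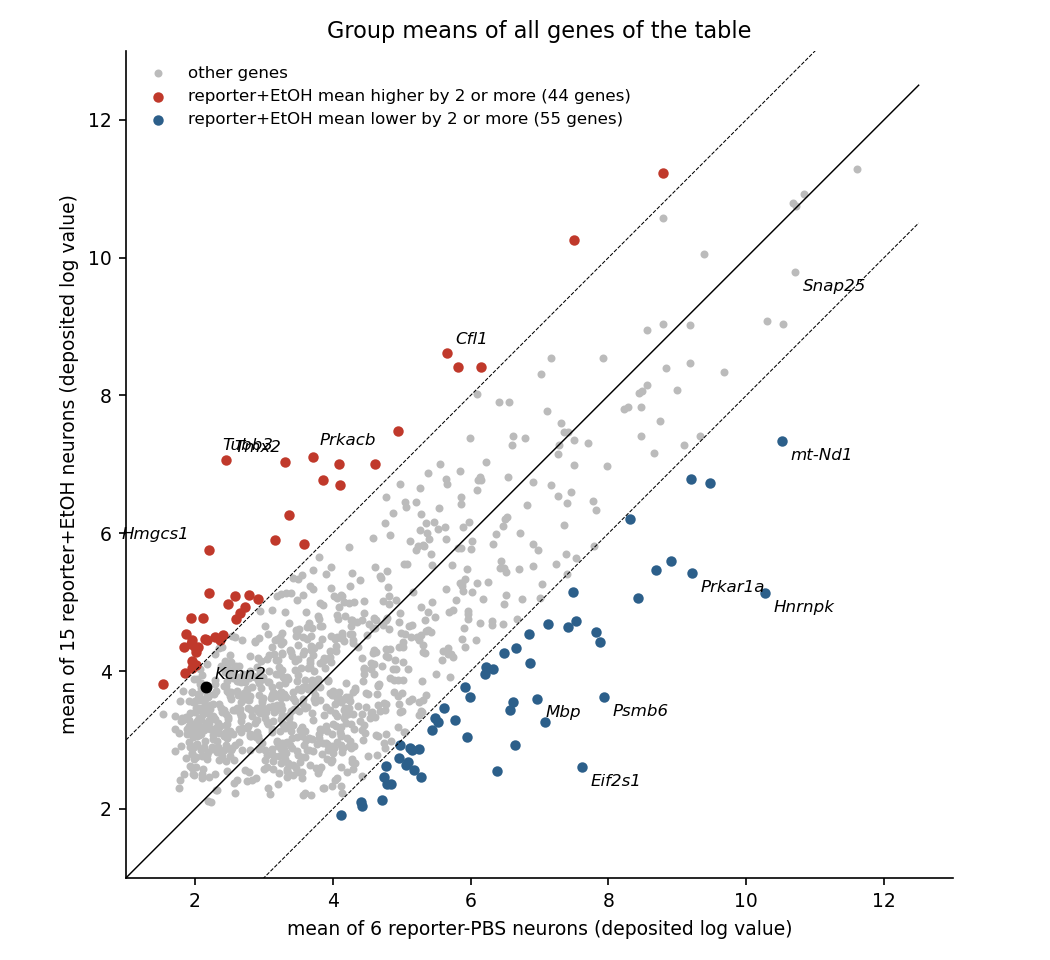
Mean deposited log value of each of 1024 genes in 15 reporter+EtOH neurons (vertical axis) and in 6 reporter-PBS neurons (horizontal axis), with the line of equal means and dashed lines at a difference of 2. The 44 red genes lie above the upper dashed line and the 55 blue genes below the lower one; Kcnn2 (black) lies just under the upper line, at 3.76 and 2.16.

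The general pattern of the heat shock element, the kind of element that drives the reporter, was looked for in the promoters of the genes. Through such sequences the recorded event would reach endogenous genes. Promoters of 300 bases (250 before and 50 after the start, RefSeq, GRCm38.p6) were matched for 793 of 1024 genes. An element was counted where 3 alternating GAA and TTC units stood 2 bases apart on either strand. It was found in 0 of 35 promoters of genes with means higher by 2 or more and in 0 of 42 promoters of genes with means lower by 2 or more. In all, 5 promoters of genes measured here held it (0.631%), and among all 27025 promoters of the reference 179 did (0.662%). With a share so low, 0 is likely in sets of 35 and 42 promoters, so these zeros say little. The chaperone and co-chaperone list had 3 units in 1 of 11 promoters, that of Chordc1, which encodes a co-chaperone of Hsp90. With 2 units the shares were 5.71% for the higher genes, 11.9% for the lower genes, 27.3% (3 of 11) for the chaperone list, 13.24% in the table and 16.97% in the reference. The 5 promoters are shown because, of the 793 matched, only they held 3 units within the 300 bases searched. The search used this general pattern and not the sequence of the reporter. Chordc1 is given in full (chr9:18292017-18292316, plus strand) and the others as the element with 10 bases on each side. Capitals mark the element.
Chordc1: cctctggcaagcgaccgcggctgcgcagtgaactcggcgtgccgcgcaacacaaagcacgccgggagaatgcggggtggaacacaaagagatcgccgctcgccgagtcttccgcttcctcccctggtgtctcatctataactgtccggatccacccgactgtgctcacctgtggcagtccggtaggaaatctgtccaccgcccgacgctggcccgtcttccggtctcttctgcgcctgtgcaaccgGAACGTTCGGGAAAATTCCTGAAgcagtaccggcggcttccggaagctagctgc
Hnrnpa2b1 (chr6:51469861-51469893, minus strand): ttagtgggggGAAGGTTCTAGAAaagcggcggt
Mettl23 (chr11:116843319-116843351, plus strand): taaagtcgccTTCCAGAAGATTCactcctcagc
Rps18 (chr17:33955858-33955890, minus strand): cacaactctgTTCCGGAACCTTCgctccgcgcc
Tra2b (chr16:22266190-22266222, minus strand): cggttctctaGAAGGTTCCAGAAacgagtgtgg

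The element of Chordc1 has 5 units over 23 bases and begins 4 bases before the annotated start, and the others have 3 units over 13 bases. None of these 5 genes differed by 2 or more. Chordc1 averaged 2.45 in RFP-positive EtOH neurons and 3.55 in PBS neurons, with 1 neuron of each group above the trough. Without the high PBS neuron, neuron 1 at 10.57, the Chordc1 difference was 0.31 instead of -1.10. Hnrnpa2b1, an RNA-binding protein, averaged 5.70 in RFP-positive EtOH neurons and 5.43 in PBS neurons. The splicing regulator Tra2b averaged 3.45 in RFP-positive EtOH neurons and 3.15 in PBS neurons. Rps18, a protein of the small ribosomal subunit, averaged 3.75 in RFP-positive EtOH and 2.96 in PBS neurons, and the methyltransferase-like gene Mettl23 averaged 3.43 in RFP-positive EtOH and 4.16 in PBS neurons. A match describes letters in a window and says nothing of binding.

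Kcnn2 was higher in part of the RFP-positive EtOH neurons. It averaged 3.76 ± 2.52 (SD, n = 15; lowest 1.36, median 2.80, highest 9.77) in RFP-positive EtOH neurons and 2.16 ± 0.34 (SD, n = 6; lowest 1.82, median 2.03, highest 2.68) in PBS neurons, a difference of 1.61. Above the trough were 6 of 15 RFP-positive EtOH neurons and 0 of 6 PBS neurons. The shares were 40% (exact Clopper-Pearson 95% interval 16.3 to 67.7%) and 0% (0 to 45.9%). As a wider upper limit for a share of 0, 3 divided by the number of neurons is used below, which is 50% for 6. Intervals and limits hold counting error alone. Of the RFP-positive EtOH neurons 8 exceeded the highest PBS neuron, 3 lay within the PBS range and 4 below it, so the groups overlap fully at the low end. Kcnn2 ranked 88 of 1024 by difference, and 169 genes were like it in having no PBS neuron above the trough. The difference was 1.18 without RFP-positive EtOH neuron 8, 1.32 in the larger set of neurons, 1.01 without the neurons with Gad1 above the trough, 0.76 between group medians and 4.20 between arithmetic means of back-transformed values. Kcnn2 lies on chromosome 18 from 45268860 to 45686024 (GRCm38, plus strand), and its exons overlap those of A330093E20Rik and AC121957.1 (284 and 323 bases at most, opposite strand). Strand is lost in the library preparation that the labels describe, so transcripts of the 2 strands cannot be told apart.

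Tmx2, Tubb3, Hmgcs1 and Prkacb, whose products work in different parts of the cell, exceeded their PBS means by the most. Tmx2, a thioredoxin-related membrane protein of the endoplasmic reticulum, led with 7.06 ± 3.40 in RFP-positive EtOH neurons (lowest 1.74, median 9.13, highest 10.6) and 2.45 ± 1.27 in PBS neurons (lowest 1.03, median 2.20, highest 4.76), a difference of 4.61. Its RFP-positive EtOH values split into 10 neurons above every PBS neuron and 5 within the PBS range. Tubb3, the neuronal class III beta-tubulin, averaged 7.03 ± 3.86 (1.93, 7.96 and 12 as lowest, median and highest) in RFP-positive EtOH and 3.31 ± 1.26 (2.23, 2.80 and 5.44) in PBS neurons. Hmgcs1, the cytosolic HMG-CoA synthase of the pathway to cholesterol, averaged 5.76 ± 3.17 (2.33, 5.88 and 11.2) in RFP-positive EtOH and 2.21 ± 0.52 (1.53, 2.20 and 2.94) in PBS neurons. All 6 PBS neurons were below the trough for Hmgcs1, whereas 8 of 15 RFP-positive EtOH neurons were above it, which is 53.3% (26.6 to 78.7%).

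Cfl1, the actin-severing protein cofilin, differed by level more than by the number of neurons. It averaged 8.62 ± 1.90 in RFP-positive EtOH neurons (3.83, 9.60 and 10.2 as lowest, median and highest) and 5.66 ± 1.75 in PBS neurons (2.85, 5.99 and 7.59), and it was above the trough in 14 of 15 RFP-positive EtOH neurons and 5 of 6 PBS neurons. Among those neurons alone its mean level was 2.74 higher in RFP-positive EtOH neurons, where the median of this quantity over the 320 genes with at least 3 such neurons in each group was 0.25. Wasf1 (WAVE1, which activates actin branching by the Arp2/3 complex) averaged 6.77 ± 2.61 in RFP-positive EtOH neurons and 3.86 ± 1.69 in PBS neurons, with 13 of 15 RFP-positive EtOH neurons and 3 of 6 PBS neurons above the trough. Nefl, the neurofilament light chain, averaged 7.00 ± 2.95 in RFP-positive EtOH neurons and 4.10 ± 2.77 in PBS neurons, where 1 neuron stood at 9.55 and the other 5 at 4.19 or below.

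The remaining higher genes of the leading 12 were Prkacb (described with protein kinase A), Rps19, Gabarap, Ankrd46, Zranb2 and Tab2. Rps19, of the small ribosomal subunit, differed by 2.93, and Gabarap, a ubiquitin-like protein of autophagy and of GABA-A receptor traffic, by 2.89. Zranb2, a zinc finger protein of splicing, differed by 2.73. Ankrd46 and Tab2, an adaptor of the kinase TAK1, differed by 2.83 and 2.67, and in both every PBS neuron was below the trough, while 7 of 15 RFP-positive EtOH neurons were above it for Ankrd46 and 6 of 15 for Tab2. Since fewer than 8 of 15 neurons were high, the differences between group medians were only 0.80 for Ankrd46 and 0.11 for Tab2. Of the 44 genes with means higher by 2 or more, 18 had no PBS neuron above the trough, as had 169 of all 1024 genes. A low PBS mean itself favours such a difference.

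**Figure D2:**
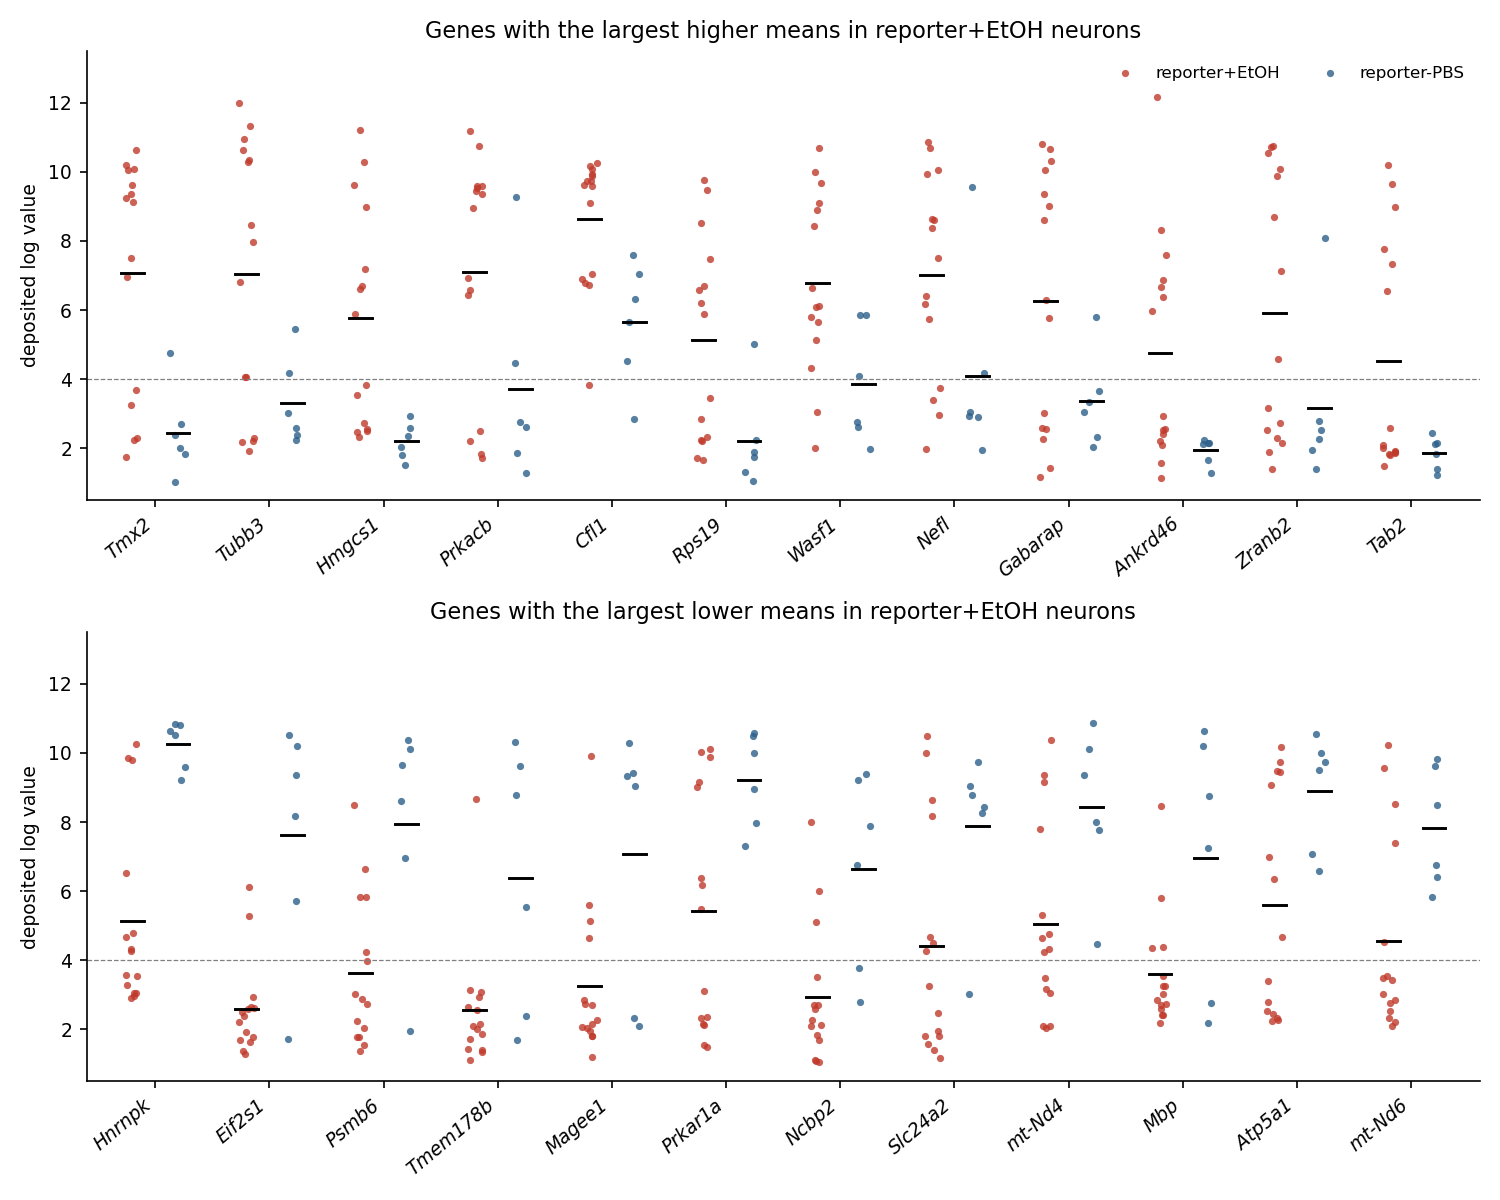
Deposited log value of each neuron for the 12 genes with the largest higher means (upper panel) and the 12 with the largest lower means (lower panel) in reporter+EtOH neurons. Points are neurons (15 reporter+EtOH in red on the left of each pair, 6 reporter-PBS in blue on the right), black bars are group means and the dashed line is the trough at 4. Most genes show neurons both well above and below the trough in reporter+EtOH neurons, while Hnrnpk lies between 9.22 and 10.8 in every reporter-PBS neuron.

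Hnrnpk, Eif2s1 and Psmb6 lay furthest below their PBS means. Hnrnpk, which binds poly(C) stretches in RNA, averaged 5.13 ± 2.68 (lowest 2.92, median 4.26, highest 10.3) in RFP-positive EtOH neurons and 10.27 ± 0.69 (lowest 9.22, median 10.58, highest 10.8) in PBS neurons, a difference of -5.14. All PBS neurons were high and close together, and 12 of 15 RFP-positive EtOH neurons lay below the lowest of them. Between arithmetic means the difference was -2.61. Eif2s1, the alpha subunit of initiation factor eIF2 and the site at which the integrated stress response slows translation, averaged 2.60 ± 1.37 (1.28, 2.40 and 6.13) in RFP-positive EtOH and 7.61 ± 3.38 (1.71, 8.77 and 10.5) in PBS neurons. It was above the trough in 2 of 15 RFP-positive EtOH neurons (13.3%, 1.7 to 40.5%) and 5 of 6 PBS neurons (83.3%, 35.9 to 99.6%). Ncbp2, which binds the cap of nuclear RNA, differed by -3.71, and 3 of 15 RFP-positive EtOH neurons and 4 of 6 PBS neurons were over 4.

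Psmb6, a catalytic subunit of the proteasome, averaged 3.63 ± 2.16 (1.38, 2.87 and 8.48) in RFP-positive EtOH and 7.94 ± 3.19 (1.95, 9.13 and 10.4) in PBS neurons. It was above the trough in 5 of 15 RFP-positive EtOH neurons and 5 of 6 PBS neurons. Tmem178b, a membrane protein, was above it in 1 of 15 RFP-positive EtOH neurons and 4 of 6 PBS neurons and differed by -3.83. Magee1, of the MAGE family, and Slc24a2, a neuronal exchanger that moves calcium out against sodium, differed by -3.82 and -3.46. For Slc24a2 the values of 5 PBS neurons lay between 8.27 and 9.72 and the sixth stood at 3.04. Mbp, the myelin basic protein of oligodendrocytes, averaged 3.60 ± 1.65 in RFP-positive EtOH and 6.96 ± 3.68 in PBS neurons, and it was above the trough in 4 of 15 RFP-positive EtOH neurons and 4 of 6 PBS neurons. Leaving out the Mbp-high neurons kept 11 RFP-positive EtOH and 2 PBS neurons, and the differences then were 0.97 for Prkacb, 0.74 for Nefl and -0.83 for Atp5a1, against 3.39, 2.91 and -3.31 over all neurons. The other leading genes but Mbp itself kept their direction. Above the trough in all 6 PBS neurons were 10 of the 55 genes with means lower by 2 or more, and 40 of all 1024 genes. A high PBS mean itself favours such a difference. Those 10 include Hnrnpk, Prkar1a, mt-Nd4, Atp5a1 and mt-Nd6.

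On GRCm38 the 3 leading higher genes lie on chromosome 2 from 84671316 to 84679140 (Tmx2, minus strand), chromosome 8 from 123411424 to 123422015 (Tubb3, plus strand) and chromosome 13 from 119690379 to 119708260 (Hmgcs1, plus strand). The 3 leading lower genes lie on chromosome 13 from 58391142 to 58403343 (Hnrnpk, minus strand), chromosome 12 from 78861819 to 78887010 (Eif2s1, plus strand) and chromosome 11 from 70525367 to 70527858 (Psmb6, plus strand). Exons of 10 of the 24 leading genes overlap those of another annotated gene, in 9 cases on the opposite strand. The longest such overlaps are of Nefl with Nefm by 1108 bases, of Hmgcs1 with Gm48342 by 458, of Cfl1 with Snx32 by 354 and of Hnrnpk with Rmi1 by 257. Values of these genes can include reads of their neighbours.

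Protein kinase A is held inactive by its regulatory subunits and freed by cyclic AMP, after which its catalytic subunits act on channels and on the transcription factor Creb1. Prkacb, a catalytic subunit, averaged 7.10 ± 3.43 (1.73, 8.95 and 11.2) in RFP-positive EtOH neurons and 3.71 ± 2.93 (1.28, 2.69 and 9.27) in PBS neurons. Prkar1a, a regulatory subunit, averaged 5.42 ± 3.46 (1.50, 5.50 and 10.1) in RFP-positive EtOH neurons and 9.21 ± 1.37 (7.30, 9.47 and 10.6) in PBS neurons. The 2 subunits thus differed in opposite directions, by 3.39 and -3.79. Taken neuron by neuron, Prkacb alone was above the trough in 7 of 15 RFP-positive EtOH neurons and 0 of 6 PBS neurons. Prkar1a was above it in all 6 PBS neurons, so that 0 was fixed in advance. Prkar1a alone was above it in 4 of 15 RFP-positive EtOH neurons and 4 of 6 PBS neurons. Both were above it in 4 of 15 RFP-positive EtOH neurons and 2 of 6 PBS neurons. The 2 genes were picked by the size of their differences, and these counts add no separate support to them. Of the other members of the list, Prkar2b differed by 1.02, Prkar2a by 0.53 and Creb1 by -1.51. Between arithmetic means the Prkar1a difference was -1.47.

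The mitochondrial genome encodes parts of the respiratory chain and ATP synthase, and its genes had lower means in RFP-positive EtOH neurons. All 8 measured protein-coding genes were lower, and 5 of them by 2 or more. Of all 1024 genes, 445 were lower and 5.37% were lower by 2 or more. The median difference of the 8 genes was -2.38, where that of all genes was 0.26. mt-Nd4 of complex I averaged 5.06 ± 2.79 (2.05, 4.33 and 10.4) in RFP-positive EtOH neurons and 8.43 ± 2.28 (4.47, 8.68 and 10.9) in PBS neurons. mt-Nd6, also of complex I and encoded on the other strand, averaged 4.57 ± 2.85 in RFP-positive EtOH neurons and 7.82 ± 1.72 in PBS neurons. It was above the trough in 5 of 15 RFP-positive EtOH neurons and all 6 PBS neurons, and among these its level differed by only 0.23. mt-Nd1 averaged 7.34 ± 3.74 in RFP-positive EtOH and 10.52 ± 1.10 in PBS neurons. The median of the 8 genes within a neuron ran from 2.95 to 10.4 in RFP-positive EtOH neurons (6.23 ± 2.79) and from 7.85 to 10.1 in PBS neurons (9.49 ± 0.88). Below the lowest PBS neuron were 10 of 15 RFP-positive EtOH neurons, and the other 5 were at or above it.

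The ribosomal RNA mt-Rnr2 went the other way, with 10.6 in RFP-positive EtOH neurons and 8.79 in PBS neurons, a difference of 1.78, while mt-Rnr1 differed by -1.07. All 11 mitochondrial genes together had a median of -1.92. That median was -3.27 in the set of 13 and 5 neurons that share many exactly equal values, -2.11 without the Mbp-high neurons and -0.36 between arithmetic means. Lars2, the mitochondrial leucyl-tRNA synthetase, averaged 6.71 ± 3.02 in RFP-positive EtOH and 4.11 ± 1.52 in PBS neurons, and AY036118, an annotated clone that the rule for naming genes passes over and that was chosen after its values were seen, averaged 10.26 in RFP-positive EtOH and 7.50 in PBS neurons.

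**Figure D3:**
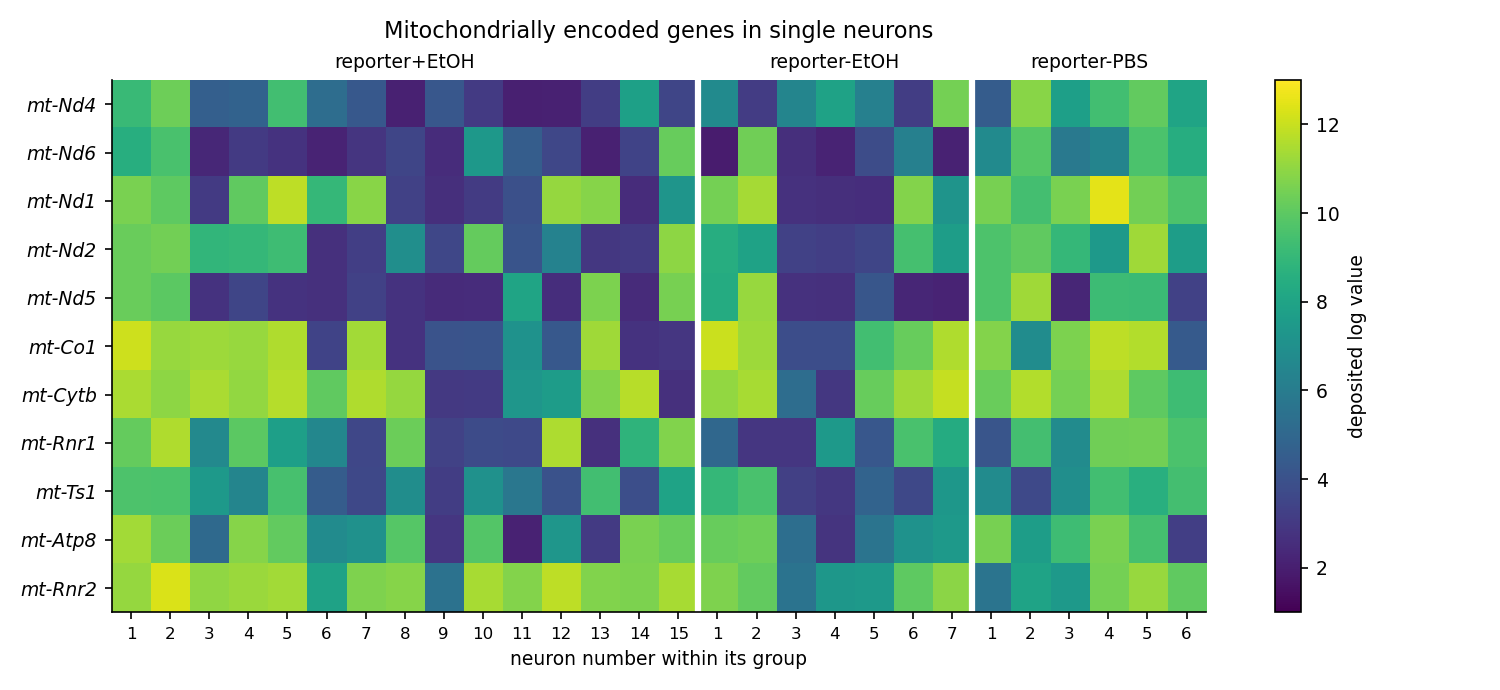
Deposited log values (colour) of 11 mitochondrially encoded genes (rows, ordered by difference) in 15 reporter+EtOH, 7 reporter-EtOH and 6 reporter-PBS neurons (columns). The per-neuron median of the 8 protein-coding genes spans 2.95 to 10.4 in reporter+EtOH, 2.87 to 10.8 in reporter-EtOH and 7.85 to 10.1 in reporter-PBS neurons; mt-Rnr2 is above the trough in all 15 reporter+EtOH neurons.

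Nuclear genes of oxidative phosphorylation were mixed. Over all genes, 4.3% had means higher and 5.37% lower by 2 or more. Of 7 complex I genes, Ndufs1 was higher by 2.19 and Ndufv1 lower by 2.91 in RFP-positive EtOH neurons, and the list's median was -0.82. Among 9 genes of ATP synthase and the ADP/ATP carriers, Slc25a4 (8.41 in RFP-positive EtOH and 5.81 in PBS neurons) was higher by 2.59, while Atp5a1, the alpha subunit, was lower by 3.31 and Slc25a5 lower by 2.16. Atp5a1 averaged 5.60 ± 3.26 in RFP-positive EtOH and 8.91 ± 1.65 in PBS neurons, and 9 of 15 RFP-positive EtOH neurons lay below the lowest PBS neuron. Atpif1, an inhibitor of ATP synthase, was over 4 in 7 of 15 RFP-positive EtOH neurons and all 6 PBS neurons. The 10 genes of complexes II to IV and cytochrome c had a median of 0.52, with Sdhaf4 lower by 2.17 and none higher by 2. This median was -0.12 without PBS neuron 2 and -0.06 without the Mbp-high neurons, and that of complex I was -1.64 without PBS neuron 2 and -0.44 without PBS neuron 1. The Sdhaf4 difference was -1.19 without PBS neuron 1 and that of Slc25a5 -1.30 without PBS neuron 4.

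Genes of the cytoskeleton shape axons and dendrites. Over all genes, 4.3% had means higher and 5.37% lower by 2 or more, and the median difference was 0.26. Of 22 microtubule and neurofilament members, 2 were higher by 2 (Tubb3 and Nefl) and 1 was lower. The lower one was the dynein heavy chain Dync1h1, with 4.64 in RFP-positive EtOH neurons and 7.41 in PBS neurons. The median of this list was 0.57, but -0.26 when group medians were compared. Tubb4a, another beta-tubulin, differed by -1.88, against 3.73 for Tubb3. Of 8 actin genes Cfl1 alone passed 2, Tmsb4x, which binds actin monomers, differed by 1.39 and Arpc5, of the Arp2/3 complex, by -0.99. Enah, which promotes growth of actin filaments, was above the trough in 3 of 15 RFP-positive EtOH neurons and 5 of 6 PBS neurons and differed by -2.48, or by -1.52 without PBS neuron 5. The Arpc5 difference was 0.11 without PBS neuron 1.

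Chaperones, the classic output of the heat shock response, had a median difference near that of all genes. Of 16 cytosolic chaperones and co-chaperones 9 had higher and 7 lower means in RFP-positive EtOH neurons, and the median of 0.21 lay beside 0.26 for all genes. Hsp90ab1 averaged 10.1 in RFP-positive EtOH and 9.38 in PBS neurons, Hsp90aa1 averaged 8.53 in RFP-positive EtOH and 7.92 in PBS neurons, and the constitutive Hspa8 averaged 8.08 in RFP-positive EtOH and 9.0 in PBS neurons. Cacybp, a calcyclin-binding protein that works with Hsp90, was the only member past 2, with 4.84 ± 3.43 in RFP-positive EtOH and 2.66 ± 1.96 in PBS neurons. Fkbp4, an Hsp90 co-chaperone, differed by -1.44 and Dnaja3 by 1.07. The CCT chaperonin, which folds actin and tubulin, had 2 of 4 subunits with higher means. In the endoplasmic reticulum, lower means were seen for Pdia4, a disulfide isomerase (-2.30), and for the chaperones Hsp90b1 (-1.55) and Hspa5 (-1.43), while Atf4, a transcription factor of the stress response, differed by 1.42 and the lectin chaperone Canx by 1.32. Without PBS neuron 1 the Pdia4 difference was -0.84. The sign of the chaperone and CCT medians changed when single neurons were left out, with ranges of -0.08 to 0.41 and -0.14 to 0.88.

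**Figure D4:**
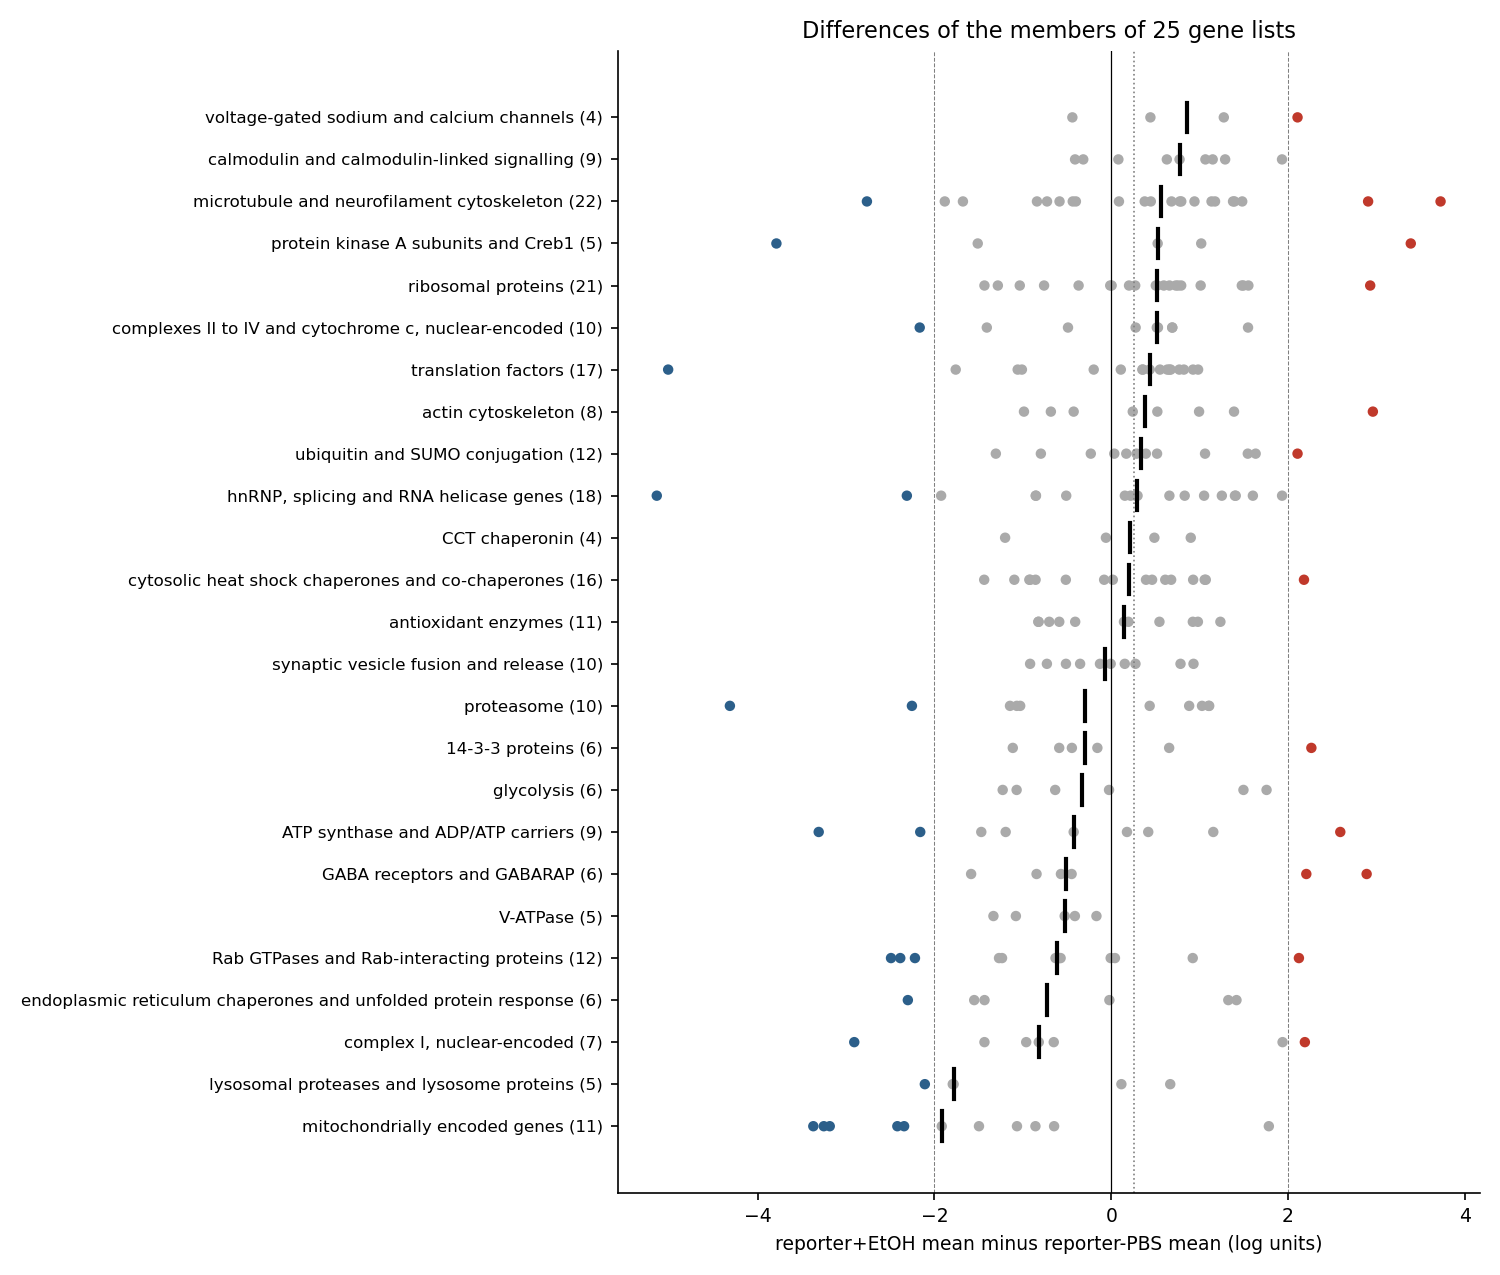
Difference of means (reporter+EtOH minus reporter-PBS, log units) of each measured member of the 25 gene lists with at least 4 members (points, number of members in parentheses), with the list median as a black bar. Dashed lines stand at -2 and 2 and the dotted line at 0.26, the median of all genes; the mitochondrially encoded genes (median -1.92) and the 5 lysosomal genes (median -1.78) lie furthest to the left.

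Protein synthesis and breakdown were each led by single genes. For the counts below, 56.5% of all genes had higher means, and the median of all genes was 0.26. Means were higher by 2 or more for 4.3% of all genes and lower by 2 or more for 5.37%. Of 21 ribosomal protein genes 15 had higher means in RFP-positive EtOH neurons, with a median of 0.52 (1.90 between arithmetic means and -0.04 between medians), and Rps19 passed 2. Ribosomal proteins have many near-identical copies in the genome, so their values are uncertain. Of 17 translation factors 12 had higher means, and Eif2s1 was the only one past 2 in either direction. Among 10 proteasome genes Psmb6 and Psmc5, an ATPase of the regulatory particle, were lower by 4.31 and 2.25, and 5 had higher means, up to 1.11 for Psmb5. Of 12 genes of ubiquitin and SUMO conjugation 9 had higher means, with a median of 0.34, near that of all genes. In the list of hnRNP, splicing and helicase genes 12 of 18 had higher means, and the median of 0.29 lay near that of all genes. Within it Hnrnpk and Hnrnph2 were lower by 5.14 and 2.31.

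Lysosomal genes had lower means in RFP-positive EtOH neurons for 3 of 5 members, where 445 of all 1024 genes did. Ctsb, a lysosomal protease, averaged 6.20 ± 3.87 in RFP-positive EtOH and 8.31 ± 3.41 in PBS neurons, Ctsd differed by -1.79 and Psap, the precursor of saposins, by -1.78. The list's median of -1.78 was -0.58 without PBS neuron 3 and 1.13 without the Mbp-high neurons. The Ctsb difference ranged from -3.31 without PBS neuron 2 to -1.63 without PBS neuron 1 when 1 neuron was left out. It was -1.07 without the neurons with Gad1 above the trough. That of Ctsd was -0.58 without PBS neuron 3, and that of Psap was -0.81 without PBS neuron 4. All 5 measured genes of the V-ATPase, the proton pump that acidifies lysosomes and synaptic vesicles, had lower means, led by Atp6v1b2 with 8.34 in RFP-positive EtOH and 9.67 in PBS neurons, and none passed 2. Their median of -0.53 was -1.41 without PBS neuron 3 and -0.31 without PBS neuron 1. The Atp6ap1 difference of -0.53 was 0.55 without PBS neuron 1 and 0.61 without PBS neuron 3. That of Atp6v0c, -0.41, was 0.03 without RFP-positive EtOH neuron 15 and 1.36 without the Mbp-high neurons. Atp6v1b2 and Atp6v1f kept their direction when any 1 neuron was left out. Of 12 genes for Rab GTPases and their partners, Rab8a, Rab3gap2 and Rab11b were lower by 2.49, 2.39 and 2.22, and Rab11a, of recycling endosomes, was higher by 2.12. Over all genes, 5.37% had means lower and 4.3% higher by 2 or more. Without PBS neuron 1 the differences were -1.50 for Rab8a and -1.59 for Rab3gap2. Rab11b differed by -1.67 without PBS neuron 6, and Rab11a by 1.71 without RFP-positive EtOH neuron 1. Each kept its direction when any 1 neuron was left out. Without the Mbp-high neurons Rab11a differed by 0.59 and Rab11b by -5.10. Rab11a and Rab11b, which are close relatives, thus differed in opposite directions: Rab11a averaged 5.05 in RFP-positive EtOH and 2.92 in PBS neurons, and Rab11b 4.27 in RFP-positive EtOH and 6.49 in PBS neurons.

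Receptors, channels and signalling genes of the synapse gave few differences past 2. Gabbr1, of the GABA-B receptor, averaged 4.93 ± 3.02 in RFP-positive EtOH and 2.73 ± 2.21 in PBS neurons, whereas the GABA-A receptor gene Gabra2 differed by -0.45. The median of the 6 genes of this list was -0.51, and 0.51 without PBS neuron 1. Scn3b, an accessory subunit of sodium channels, averaged 4.52 ± 3.61 in RFP-positive EtOH and 2.41 ± 1.56 in PBS neurons. The calcium channel subunit genes Cacng3 and Cacna1e differed by 1.27 and -0.44, and the potassium channel genes Kcnv1 and Kcnc2 by 1.11 and -1.20. Of 9 genes linked to calmodulin, the calcium sensor of SK2, none passed 2 and 7 had higher means, against 56.5% of all genes. Among the 7 was Camk2n1, an inhibitor of CaM kinase II (8.02 in RFP-positive EtOH and 6.09 in PBS neurons). Calm2, which encodes calmodulin, differed by 0.08. None of 10 genes of vesicle fusion passed 2; Snap25 averaged 9.79 ± 1.57 in RFP-positive EtOH and 10.71 ± 0.93 in PBS neurons.

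Some smaller lists were measured as well. Of 6 genes for 14-3-3 proteins, Ywhab was higher by 2.26 and was above the trough in 15 of 15 RFP-positive EtOH neurons and 4 of 6 PBS neurons, and Ywhah differed by -1.11. Without PBS neuron 4 the Ywhab difference was 1.25. Ogt, which attaches O-GlcNAc to proteins, and Mgea5, which removes it, differed by 1.14 and -1.98. Among 6 glycolytic genes Pgam1 and Ldha differed by 1.76 and 1.50 and Eno2 by -1.23. None of 11 antioxidant genes passed 2, and they ranged from -0.82 for Sod1 to 1.24 for Prdx6. The immediate early genes Fos and Junb differed by -0.02 and 0.80. In ethanol and aldehyde metabolism, Cat and Akr1a1 differed by 0.14 and 0.69. The glutamate receptor gene Grm3 differed by -0.95. Of the glial markers, Mbp of oligodendrocytes differed by -3.36, and the astrocyte genes Slc1a2, Aldoc and Cst3 by -0.93, -1.07 and 0.93. The microglial receptor Csf1r differed by -0.26. The sign of a difference turned when 1 PBS neuron was left out for Sod1 and Grm3 (0.14 and 0.22 without neuron 1), for Csf1r and Cacna1e (0.48 and 0.37 without neuron 6) and for Gad1 (1.20 without neuron 4), and also for Fos and Cat, whose differences were near 0.

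A second way to compare the groups is the share of neurons above the trough. The share was higher by at least 50 percentage points in RFP-positive EtOH neurons for 4 genes (0.391% of all: Fyn, Hmgcs1, Scrn1 and Tmx2) and lower for 8 (0.781%). Fyn, a tyrosine kinase of the Src family, had 8 of 15 RFP-positive EtOH neurons above the trough (53.3%, 26.6 to 78.7%) and 0 of 6 PBS neurons (up to 50%), with means of 4.34 ± 2.83 in RFP-positive EtOH and 1.84 ± 0.38 in PBS neurons. Scrn1 had 10 of 15 RFP-positive EtOH neurons above it and 1 of 6 PBS neurons. Just under 50 points, Mat2b, a regulatory subunit of methionine adenosyltransferase, had 12 of 15 RFP-positive EtOH neurons and 2 of 6 PBS neurons above it. The intervals of these shares overlap between the groups. By level among neurons above the trough, Cd81, a tetraspanin of the cell membrane, was higher by 3.04 in RFP-positive EtOH neurons and Lars2 by 2.80, and the kinase gene Stk16, whose exons overlap Tuba4a by 1379 bases on the opposite strand, was lower by 3.31.

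Beside these groups, the 7 RFP-negative EtOH neurons were exposed to ethanol, as the RFP-positive EtOH neurons were, and share the reporter state with the PBS neurons. Neither the dose nor the animal of a neuron is stated, so the ethanol groups may differ in both. The RFP-negative EtOH neurons enter no difference of this comparison. Means are given side by side because any 2 differences would share neurons. For Kcnn2 they averaged 2.18, with 3.76 in RFP-positive EtOH and 2.16 in PBS neurons. Fyn was alike, at 4.34 in RFP-positive EtOH, 2.16 in RFP-negative EtOH and 1.84 in PBS neurons. Nefl averaged 7.00 in RFP-positive EtOH, 4.21 in RFP-negative EtOH and 4.10 in PBS neurons. For these genes the RFP-negative EtOH mean lay close to the PBS mean. Prkar1a averaged 5.42 in RFP-positive EtOH, 6.73 in RFP-negative EtOH and 9.21 in PBS neurons, and Prkacb averaged 7.10 in RFP-positive EtOH, 4.46 in RFP-negative EtOH and 3.71 in PBS neurons. Prkacb without Prkar1a was above the trough in 7 of 15 RFP-positive EtOH, 0 of 7 RFP-negative EtOH and 0 of 6 PBS neurons. Neither was above it in 0 of 15 RFP-positive EtOH, 2 of 7 RFP-negative EtOH and 0 of 6 PBS neurons, and the zeros in PBS neurons follow from Prkar1a being high in all 6.

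Other genes had RFP-negative EtOH means near those of the RFP-positive EtOH neurons. Hmgcs1 averaged 5.76 in RFP-positive EtOH, 5.51 in RFP-negative EtOH and 2.21 in PBS neurons. Wasf1 averaged 6.77 in RFP-positive EtOH, 6.54 in RFP-negative EtOH and 3.86 in PBS neurons. The actin regulator and the sterol enzyme thus had similar means in both ethanol groups. Among lower genes, Hnrnpk averaged 5.13 in RFP-positive EtOH, 4.08 in RFP-negative EtOH and 10.27 in PBS neurons. Eif2s1 averaged 2.60 in RFP-positive EtOH, 2.65 in RFP-negative EtOH and 7.61 in PBS neurons. The per-neuron median of mitochondrial protein genes averaged 6.23 ± 2.79 in RFP-positive EtOH, 6.77 ± 3.01 in RFP-negative EtOH and 9.49 ± 0.88 in PBS neurons. A different order was seen for Cacybp, whose mean was 4.84 in RFP-positive EtOH, 7.27 in RFP-negative EtOH and 2.66 in PBS neurons. None of these differences between groups was tested.

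**Figure D5:**
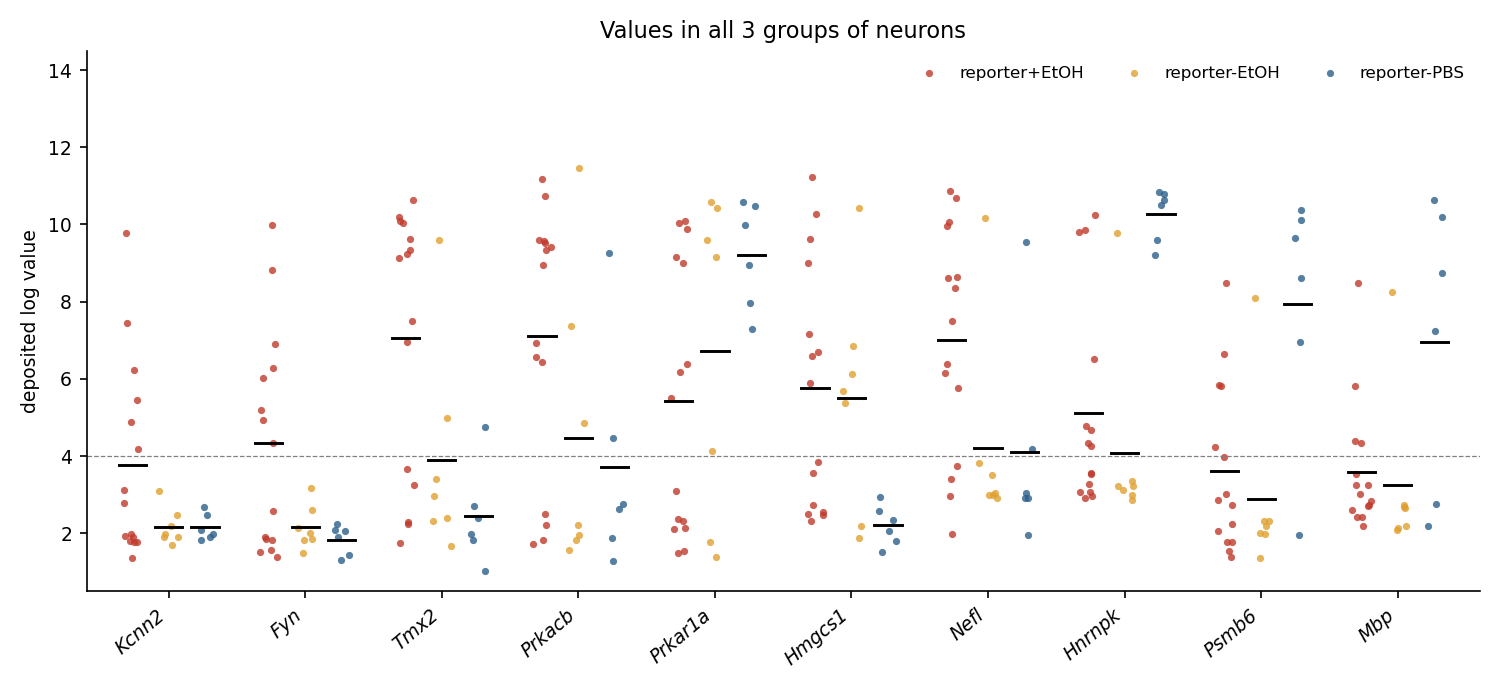
Deposited log value of each neuron for 10 genes in reporter+EtOH (red), reporter-EtOH (orange) and reporter-PBS (blue) neurons, with group means as black bars and the trough at 4 as a dashed line. No reporter-EtOH or reporter-PBS neuron is above the trough for Kcnn2 or Fyn, while for Hmgcs1, Hnrnpk and Psmb6 the reporter-EtOH mean lies near that of the reporter+EtOH neurons.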

How the data were processed

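Single M1 neurons were drawn into a pipette and their RNA was amplified (SMARTer), tagmented (Nextera XT) and read for 51 cycles from 1 end, per the labels' protocols. GRCm38, Bowtie2 and Cufflinks 2.2.1 appear, without their roles, per the submitters' processing notes. The step to log values is not stated there. The deposited values are logarithmic and were treated as log2 values made by the authors. The base is not stated, and another base would rescale every difference by 1 factor. The table holds 1024 genes over a cut-off that is not stated, in 28 columns, with 0 columns of other samples. Depth is unknown, and with no animals named the number of neurons gives no precision for the condition. All 6 PBS neurons with a column were taken, although the design text speaks of 5.

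From the table, group means, SDs, differences (a gene is counted at a difference of at least 2), numbers of neurons over the trough (the lowest bin of 0.25 above the low mode) and exact Clopper-Pearson 95% intervals were computed with Python 3.11.15, pandas 2.3.3 and scipy 1.17.1. A low value does not show that a transcript was missing. The computation was tested on simulated data. With 1 sample per group there is no test. Coordinates are from GENCODE M21, where 1020 identifiers matched. Of 136 named genes, 45 share exonic bases with a neighbour, and 36 do so with one on the other strand. The promoters of RefSeq did not cover all genes.

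The members, the gene lists and the rules were chosen with earlier results of these data known. Named were Kcnn2, the 12 genes with the largest difference in each direction (passing over predicted and Y-linked genes, Xist and clone names), up to 4 members with the largest absolute difference of each of 32 gene lists and 9 marker lists, 6 genes per direction by share above the trough and 3 per direction by level above it. The apoptosis list had 0 measured members. Other list members are given where a list is described, and a few genes are not reported here. Alternatives were group medians, arithmetic means of back-transformed values, upper-quartile scaling, leaving out each neuron, only neurons sharing at least 5 exactly equal values, leaving out neurons high in Gad1 or Mbp, a filter of 25% of neurons above the trough, and other thresholds.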

Additional observations from a re-analysis of the deposited data

Results flagged for a closer look

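In 35 of 158 group values looked at, 1 neuron stood far from all others of its group, 26 times in PBS neurons and 9 times in RFP-negative EtOH neurons. Chance flags about 5% of groups where values follow a bell curve, which these values, with their low and high ranges, do not. The group of 15 RFP-positive EtOH neurons was too large for this rule. No explanation was tested.

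Among RFP-negative EtOH neurons, neuron 5 was the highest for Tmx2 (9.59), Nefl (10.17) and Hnrnpk (9.79). Neuron 1 was the highest for Tmem178b (2.36) and Mbp (8.26), neuron 6 for Tab2 (4.55) and Eif2s1 (6.41), neuron 2 for Gabarap (6.26) and neuron 3 for Psmb6 (8.10).

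PBS neuron 1 was the highest for 10 genes: Nefl (9.55), Cacng3 (10.58), Cct4 (11.04), Chordc1 (10.57), Creb1 (10.80), Grm3 (9.76), Ndufb11 (10.64), Scn3a (7.17), Ube2n (6.13) and Ube2o (5.60). PBS neuron 6 was the highest for Csf1r (6.76), Gabbr1 (7.20), Luc7l3 (9.50) and Rps4x (6.05) and the lowest for Mef2c (5.91). PBS neuron 4 was the highest for Gad1 (13.22), mt-Nd1 (12.52), Psmb5 (5.25) and Rps19 (5.03). PBS neuron 2 was the highest for Zranb2 (8.07), Ndufb7 (6.43) and Prdx6 (4.72). PBS neuron 5 was the highest for Park7 (8.73) and Scn3b (5.54) and the lowest for Slc24a2 (3.04), and PBS neuron 3 was the lowest for Atp6v0c (2.19). The single PBS neuron above the trough for Chordc1 was thus neuron 1, and the PBS neuron with the highest Gad1 value also had the highest mt-Nd1 value.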

How the results depend on the processing

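Of 1518 recomputed values of 56 results, 1489 moved by less than the spread across neurons (or, for counts, by less than 1.5 times), 28 moved further, and 1 leading gene with a difference past 2 turned its direction. That gene was Mbp, at 0.34 without the neurons with Mbp above the trough, which follows from leaving those neurons out. The spread used is that of single neurons, and leaving out 1 neuron can hardly move a mean so far. The number that moved less than it therefore says little about stability. Prkacb, at 3.39 over all neurons and 0.97 without the Mbp-high neurons, was counted as moving less. Medians of gene lists lie nearer to 0, and 20 of 25 changed sign under at least 1 alternative, 10 of them when a single neuron was left out. The count of genes with means higher by 2 or more (44) was 351 with arithmetic means, 73 with the 13 and 5 neurons sharing many equal values, and 160 without the Mbp-high neurons (11 and 2 left). It ranged from 44 to 72 over leaving out each neuron. The count lower by 2 or more (55) was 105 with group medians, 144 with arithmetic means and 221 without the Mbp-high neurons, and ranged from 54 to 84 over leaving out each neuron. At a threshold of 1 the counts were 255 and 197, and at 3 they were 4 and 16. Arithmetic means gave a median over all genes of 0.75, a Kcnn2 difference of 4.20 and a ribosomal protein median of 1.90. Group medians shifted the median of all genes by -0.20 and upper-quartile scaling by 0.04. Without the Mbp-high neurons the list medians were -2.42 for GABA receptors, -0.92 for calmodulin-linked genes, -1.50 for the CCT chaperonin and 1.13 for lysosomal genes. With the trough 1 unit lower, 9 genes had a share higher by 50 points or more. The causes were not tested. Of the genes that differed by 2 or more, 44 of 99 had the higher mean in RFP-positive EtOH neurons, against 70.9% with arithmetic means, 57.1% without PBS neuron 1, 35.2% with group medians and 34.9% without PBS neuron 2.

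All 24 leading genes kept their direction when any 1 neuron was left out, and 24 of 24 did so under scaling, group medians, arithmetic means, the equal-value set and without the Gad1-high neurons. They were picked by the size of the same differences. No paired analysis was possible because the result comes from no test and the replicate numbers of the titles only name neurons. Depth is unknown, and with 6 PBS neurons a share of 0 allows up to 50%.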
